A study of Mus musculus with 16 samples.

Results

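The genes described here are the nuclear genes for subunits of the mitochondrial respiratory chain and ATP synthase, the machinery of oxidative phosphorylation, in cultured adult neural stem cells of mice with and without Fmr1. They were chosen by symbol alone: names beginning with Nduf followed by a, b, c, s or v and a number (complex I), Sdha to Sdhd (complex II), names beginning with Uqcr (complex III), Cox4 to Cox8 without a further suffix (complex IV) and names beginning with Atp5a to Atp5l (complex V). The rule took 78 of 20409 genes, of which 37 belong to complex I, 4 to complex II, 8 to complex III, 15 to complex IV and 14 to complex V. It leaves out Cox4i1, Ndufab1, Cyc1 and other subunits with other forms of name.

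The cells came from dentate gyri of 8- to 10-week-old males of strain FVB/N that were Fmr1 knockout (KO) or wild-type (WT) littermates, and were kept proliferating with FGF2 and EGF (20 ng/ml of both). FMRP, the product of Fmr1, binds RNA and is known to repress the translation of many mRNAs. How the allele was made is not given in the sources used here. Each of 8 cultures, 4 KO and 4 WT from independently isolated cells, gave a ribosome footprint library and a cytoplasmic RNA library from the same lysate, after cycloheximide at 100 µg/ml for 10 min. Footprints are the mRNA pieces that ribosomes shield from nuclease, and footprints relative to RNA are called translational efficiency (TE). Footprint libraries of replicates 3 and 4 carry unique molecular identifiers (UMIs) of 8 nt, and those of replicates 1 and 2 carry UMIs of 5 nt.

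Complexes I and II pass electrons from NADH and succinate to ubiquinone, complex III passes them on to cytochrome c, and complex IV passes them to oxygen. Complexes I, III and IV pump protons, and complex V uses their return to make ATP. Most subunits are encoded in the nucleus, translated in the cytosol and imported, while a few core subunits are encoded by mitochondrial DNA; mitochondrially encoded genes were not analysed here. Neural stem cells are known for relying strongly on glycolysis and for turning to oxidative phosphorylation as they differentiate.

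Total estimated counts per library were 10553216 to 17147612 in KO footprints, 9397586 to 13713753 in WT footprints, 5968537 to 6580305 in KO RNA and 5330018 to 6425205 in WT RNA. The 78 genes held 2.14% to 2.41% of the counts of a KO footprint library and 1.79% to 2.47% of a WT one, against 0.831% to 1.21% in KO RNA and 0.747% to 1.35% in WT RNA. Fmr1 itself had 12.7 to 27.0 CPM (counts scaled to library size) in KO footprints and 128.9 to 149.6 CPM in WT footprints. In RNA it had 3.35 to 30.8 CPM in KO and 27.4 to 106.7 CPM in WT, where the ranges overlap. All 10 neural stem and progenitor markers had counts in each group and summed to 8040 to 11400 CPM in KO footprints and 10400 to 14500 CPM in WT footprints. Lists of other cells were present as well. In footprints 8 oligodendrocyte-lineage markers summed to 1450 to 1730 CPM in KO and 1250 to 2080 CPM in WT, with Mog at 0, and 7 neuroblast and neuron markers summed to 933 to 1260 CPM in KO and 1190 to 2090 CPM in WT. Of 3 ependymal markers, 2 had counts (11.1 to 28 CPM in KO footprints and 9.27 to 26.8 CPM in WT footprints) and Tmem212 was at 0. Endothelial and mural markers summed to at most 5.66 CPM in any library, with Cldn5 at 0, and microglial markers to at most 1.3 CPM, with Cx3cr1 and Aif1 at 0. The summed level of 6 astrocyte markers was 1260 to 2070 CPM in KO footprints and 107 to 950 CPM in WT footprints, so the genotypes did not overlap. In RNA the sum was 620 to 1410 CPM in KO and 73.1 to 710 CPM in WT, which overlap. By gene, 5 of 6 tested astrocyte markers had a positive log2 fold change, KO over WT, in footprints and 1 of 5 in RNA, and edgeR called 0 in either. In such bulk samples fewer cells of a type and less RNA per cell cannot be told apart.

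The tissue-restricted isoforms of complex IV and complex I were at or near the limit of detection, and the widely expressed isoforms carried the signal. Cox7b2 and Cox8c, isoforms known from testis, had no count in any of the 16 libraries, which allows up to 0.0306 CPM over the 8 footprint libraries and up to 0.0616 CPM over the 8 RNA libraries (3 counts, counting error only). Cox7a1, an isoform of heart and skeletal muscle, reached at most 0.178 CPM in footprints, and its partner Cox7a2 had 244, 250, 312 and 284 CPM in KO footprints and 186, 303, 343 and 368 CPM in WT footprints. Cox6b2, known from testis, stayed at 0.185 to 1.21 CPM in KO footprints and 0.304 to 2.48 CPM in WT footprints, against 228 to 281 CPM and 234 to 289 CPM for Cox6b1. Ndufa4l2, a paralogue of Ndufa4 induced by low oxygen in other cells, stayed below 1 CPM in each footprint library. Ndufa4 had 551, 502, 607 and 552 CPM in KO footprints and 391, 555, 604 and 789 CPM in WT footprints; by name it falls under complex I, although its protein is now regarded as a complex IV subunit.

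A pair of muscle-type isoforms departed from this in some libraries. Cox6a2 had 0.806, 0.178, 0.186 and 0.37 CPM in KO footprints and 0.145, 8.73, 0.203 and 0.216 CPM in WT footprints. WT 2 stood alone, and the same culture had 2.46 CPM in RNA, where no other library passed 0.338 CPM. The 4 muscle-type markers summed to 0.608 CPM in the footprints and 1.84 CPM in the RNA of that culture (0.581 to 1.40 and 1.84 to 6.59 CPM over the WT cultures). Cox8b had 1.02 and 0.0926 CPM in footprints of KO 3 and 4 and 0.203 and 0.216 CPM in WT 3 and 4, against 2.93 and 2.85 CPM in KO 1 and 2 and 5.88 and 2.43 CPM in WT 1 and 2. Its widely expressed partner Cox8a had 323 and 232 CPM in KO 3 and 4 and 297 and 321 CPM in WT 3 and 4, against 212 and 176 CPM in KO 1 and 2 and 168 and 217 CPM in WT 1 and 2.

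Per unit of length, the median footprint density was highest for the genes of complexes IV and V and lowest for complexes I and II. The scale here is the deposited TPM (length-scaled transcript abundance, rounded to whole numbers by the authors), which corrects for length. Over genes with enough footprints to be tested, the median footprint TPM was 372 in KO and 384.5 in WT for complex I (36 genes), 372 and 333 for complex II (4 genes), 651 and 652 for complex III (8 genes), 1026 and 1036 for complex IV (11 genes) and 1013 and 984 for complex V (14 genes), in each case KO and then WT, and over the same genes. In complex I, Ndufa4 had 3002 ± 173 TPM in KO and 3091 ± 625 TPM in WT (SD, n = 4 each), and Ndufc2, an accessory membrane subunit, had 1658 ± 91.8 and 1565 ± 337 TPM. The flavoprotein Ndufv1, which takes electrons from NADH, had 124 ± 10.98 TPM in KO and 119 ± 7.96 TPM in WT, the lowest mean in either genotype among the tested genes of complex I. In complex IV, Cox6c had 2071 ± 114 TPM in KO and 2181 ± 181 TPM in WT, while Cox7c had 307 ± 39.0 and 301.5 ± 62.6 TPM.

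**Figure D1:**
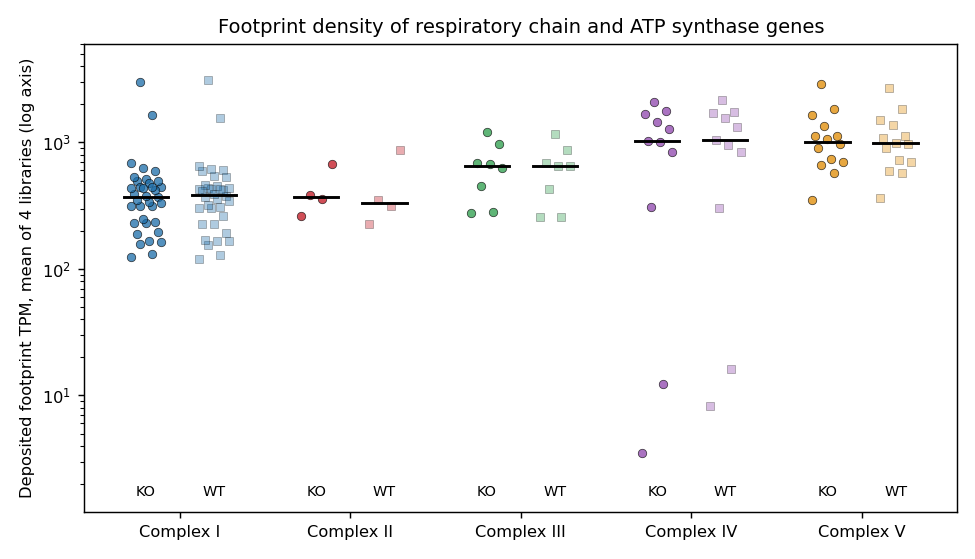
Deposited footprint TPM of each gene (mean of 4 libraries, log axis) by complex, KO as circles left of WT as squares; black bars are medians over genes with enough footprints to be tested. Complexes IV and V sit highest, with medians of 1026 and 1013 TPM in KO and 1036 and 984 TPM in WT, and the 2 low points of complex IV are Cox6b2 and Cox8b.

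ATP synthase carries many copies of its c subunit per enzyme, encoded by Atp5g1, Atp5g2 and Atp5g3, which give the same mature protein; reads shared by such near copies are divided by the counting, so the split between the 3 genes is uncertain. Their summed footprint TPM was 4557, 4605, 4810 and 4449 in KO and 3599, 4390, 4953 and 4667 in WT. The means were 4610 ± 151 in KO and 4400 ± 583 in WT (SD, n = 4 each), with overlapping ranges. Relative to Atp5c1, the single-copy γ subunit, the sum was 6.61 ± 0.403 in KO and 6.02 ± 0.427 in WT. Atp5g3 supplied 63.3% ± 3.94 of the sum in KO and 61.9% ± 4.33 in WT, Atp5g2 24.3% ± 2.14 and 25.3% ± 2.78, and Atp5g1 12.4% ± 1.86 and 12.8% ± 1.85. The catalytic β subunit Atp5b stood at 2.37 ± 0.205 times Atp5c1 in KO and 2.04 ± 0.218 times in WT, and the α subunit Atp5a1 at 1.603 ± 0.184 and 1.48 ± 0.198 times. The δ subunit Atp5d, part of the central stalk, stood at 0.941 ± 0.0377 times Atp5c1 in KO and 0.82 ± 0.0422 times in WT, with KO at 0.891 to 0.973 and WT at 0.768 to 0.870. Over these 4 ratios, picked after their values were seen, a two-sided exact permutation test gave p = 0.0286 for Atp5d, which is the smallest 4 against 4 libraries allow, and 0.114 after Benjamini-Hochberg adjustment; the other adjusted p-values were 0.152, 0.152 and 0.4. With same-numbered cultures kept as pairs, KO was above WT in 4 of 4 pairs for Atp5d and for Atp5b, and in 3 of 4 for Atp5a1 and for the c-subunit sum. All 4 ratios share Atp5c1 as the divisor, so they are not independent of each other. Atp5c1 had 726, 666, 771 and 636 TPM in KO footprints and 666, 722, 778 and 751 TPM in WT footprints. The exact sign-flip permutation test over pairs gave p = 0.125 for Atp5d and for Atp5b, the smallest that 4 pairs allow.

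The main comparison asks whether loss of FMRP changed these genes in RNA, in ribosome footprints or in TE. No gene of the 5 complexes passed the threshold in any of the 3. Of 78 genes, 66 passed the filter on low counts in RNA, 73 in footprints and 66 in both. With edgeR's quasi-likelihood test and Benjamini-Hochberg adjustment over all genes, 0 of 66 genes were called at an adjusted p under 0.05 in RNA, 0 of 73 in footprints and 0 of 66 in TE, and DESeq2 and limma-voom also called 0. Over all tested genes, 0.00901% were called in RNA, 0.0349% in footprints and 0% in TE. At an unadjusted p under 0.05 the counts of these genes were 0 as well, against 1.87% of all tested genes in RNA, 4.59% in footprints and 0.129% in TE. The median log2 fold change, KO over WT, was 0.06 in RNA against 0.01 over all 11097 genes tested, 0.01 in footprints against 0.01 over 11472 genes, and -0.03 in TE against 0.01 over 10863 genes. In the shortest quartile by the length described below, the RNA median was 0.065 over 54 of these genes and 0.061 over all genes.

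Differences were small in footprints and measured with less precision in RNA and TE, under models that differ. The footprint model held UMI length, which splits the replicate sets, while in RNA any difference between the sets stayed in the residual spread. The TE model held that term for footprints only. In the comparison of replicate sets, which fitted genotype and set together, the median SE in RNA was 0.21. In footprints 69 of 73 genes had a log2 fold change within 0.25 of 0, with a median SE of 0.15 (0.10 to 0.75). In RNA 57 of 66 were within 0.25, with a median SE of 0.30 (0.19 to 0.88). In TE 60 of 66 were within 0.25, with a median SE of 0.36 (0.21 to 0.82). This model does not use that each culture gave both libraries. With a term for each culture, added after the data were seen, the median SE in TE was 0.181 (0.114 to 392). An SE of 392, derived from the F statistic, is not usable as a precision. In this model 56 of 66 genes were within 0.25 and edgeR again called 0 of 66. One gene, Cox7a2, then had an unadjusted p under 0.05, against 1.4% of all tested genes.

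Complex I averaged 7.38 ± 0.05 log2 CPM in KO footprints and 7.40 ± 0.17 in WT footprints (SD over 4 libraries, 34 genes tested in both assays), and 5.41 ± 0.24 in KO RNA and 5.34 ± 0.42 in WT RNA. Of 34 genes tested in RNA 23 had a positive log2 fold change and 11 a negative one, and of 36 tested in footprints 18 and 18. Ndufb4, a membrane-arm accessory subunit, had the highest RNA value of the complex, at 0.24 (SE 0.31). The footprint extremes were Ndufa12 at 0.22 (SE 0.21) and Ndufb3 at -0.29 (SE 0.15).

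Ndufa1, an X-linked accessory subunit, was the single gene whose footprint levels did not overlap between genotypes. It had 70.2, 80.0, 72.0 and 73.7 CPM in KO footprints and 82.0, 88.5, 86.9 and 83.1 CPM in WT footprints. All 4 KO libraries were below all 4 WT libraries, by a log2 fold change of -0.20 (SE 0.10; edgeR unadjusted p = 0.08, adjusted p = 0.999). One gene of 73 is 1 such case, and over all tested genes 1.88% did not overlap in footprints and 1.28% in RNA, where none of the 66 was among them. Ndufa1 fell under the RNA filter, with 0.163 to 1.18 CPM in KO RNA and 0.988 to 1.56 CPM in WT RNA.

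Complex II held the gene with the smallest p-value in either assay, and its members differed in sign. Sdhc, a membrane anchor of succinate dehydrogenase, had 284, 447, 267 and 311 CPM in KO footprints and 473, 406, 433 and 386 CPM in WT footprints. Its RNA had 57.0, 59.1, 52.3 and 70.0 CPM in KO and 94.3, 61.2, 73.6 and 86.1 CPM in WT. KO was lower than the WT culture of the same number in 4 of 4 pairs in RNA and in 3 of 4 in footprints, and the ranges overlapped in both. The log2 fold changes were -0.40 in RNA (SE 0.21; unadjusted p = 0.083) and -0.38 in footprints (SE 0.17; unadjusted p = 0.053), each the smallest p-value of its assay among these genes, and neither passed adjustment in edgeR (adjusted p = 1 and 0.999). Under the alternatives tried, Sdhc stayed between -0.51 and -0.31 in RNA and between -0.55 and -0.26 in footprints, with 0 calls. Sdha, the catalytic flavoprotein, had 454, 606, 638 and 583 CPM in KO footprints and 454, 412, 573 and 559 CPM in WT footprints, a log2 fold change of 0.20 (SE 0.13).

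In complex III all 6 genes tested in RNA had positive values of 0.02 to 0.19, against 51.3% of all tested genes with a positive value, and in footprints 6 of 8 were positive, from -0.07 for Uqcrq to 0.13 for Uqcr11. Uqcrq and Uqcr11 are small subunits of the complex. The core proteins Uqcrc1 and Uqcrc2 and the Rieske iron-sulphur protein Uqcrfs1 had a median of 0.06 in RNA and 0.11 in footprints. In complex IV 4 of 9 genes were positive in RNA and 4 of 11 in footprints. Among genes of at least 5 CPM, the RNA extremes were Cox7b at 0.35 (SE 0.50) and Cox6b1 at -0.27 (SE 0.48), small subunits with 3.31 to 12.2 CPM and 3.65 to 8.12 CPM in KO RNA and 3.14 to 8.91 CPM and 2.61 to 11.2 CPM in WT RNA. The subunits Cox5a and Cox7a2 had 0.10 (SE 0.17) and -0.12 (SE 0.17) in footprints.

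In complex V 9 of 13 genes were positive in RNA and 7 of 14 in footprints, where all values lay between -0.09 and 0.13. Atp5b had 2660, 3005, 3225 and 2488 CPM in KO footprints and 1858, 2853, 2903 and 2867 CPM in WT footprints, and its log2 fold change of 0.13 (SE 0.17) was the highest of the complex. WT 1 was low, and the other WT libraries lay within the KO range. The 3 c-subunit genes had 0.05, 0.17 and 0.20 in RNA for Atp5g1, Atp5g2 and Atp5g3 and -0.01, -0.02 and 0.11 in footprints.

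**Figure D2:**
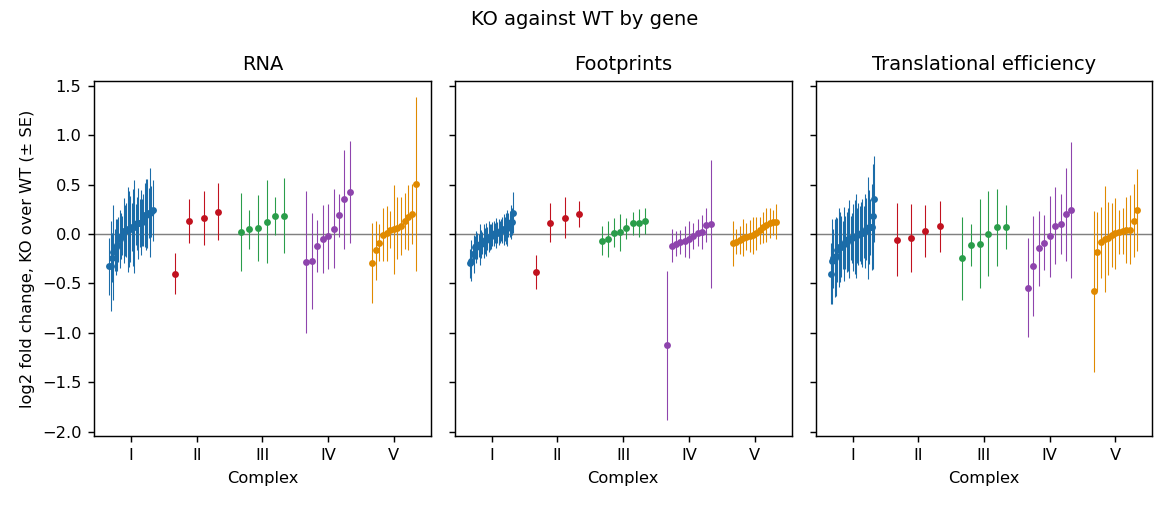
Log2 fold change of KO over WT with its SE for each tested gene, ordered by value within each complex, in RNA, footprints and TE. Values crowd around 0 in all 5 complexes, most tightly in footprints (median SE 0.15), Sdhc is the low point of complex II at -0.40 in RNA and -0.38 in footprints, and the low point of complex IV in footprints is Cox6b2 at -1.13 with an SE of 0.75.

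In pairs 1 and 4 most genes of the 5 complexes differed between the cultures in one direction, KO higher in pair 1 and KO lower in pair 4, and in pairs 2 and 3 KO was higher for most genes in RNA but not in footprints. In RNA, KO was above the WT culture of the same number for 55 of 66 genes in pair 1, 53 in pair 2, 51 in pair 3 and 8 in pair 4. In footprints it was above for 62 of 73 genes in pair 1, 37 in pair 2, 36 in pair 3 and 5 in pair 4. Over all tested genes these shares stayed between 49.9% and 54%. The median difference between the pair's libraries, on the log2 CPM scale, was 0.34 in RNA and 0.28 in footprints for pair 1, 0.252 and 0.0017 for pair 2, 0.172 and -0.0044 for pair 3, and -0.30 and -0.23 for pair 4. WT 1 was the lowest WT footprint library in each complex and WT 4 the highest in complexes I, III, IV and V. The footprint median was -0.15 within replicates 3 and 4 alone, with 7 of 72 genes positive, and 59 of 75 genes were positive within replicates 1 and 2 alone. The difference in genotype effect between the replicate sets was not tested. The part in these differences of the astrocyte markers, whose summed footprint level did not overlap between genotypes while 4 of 5 had negative RNA values, was not tested.

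Of the genes that went against the majority in pair 1, 6 did so in both assays. KO 1 was below WT 1 for 11 genes in footprints and for 11 genes in RNA. Among those on both lists, which were drawn up after the values were seen, were Ndufa10, Ndufs1 and Sdhc. Ndufa10, an accessory subunit of complex I, had 199, 304, 237 and 295 CPM in KO footprints and 317, 225, 356 and 297 CPM in WT footprints, with WT 2 low and WT 1 and 3 high.

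**Figure D3:**
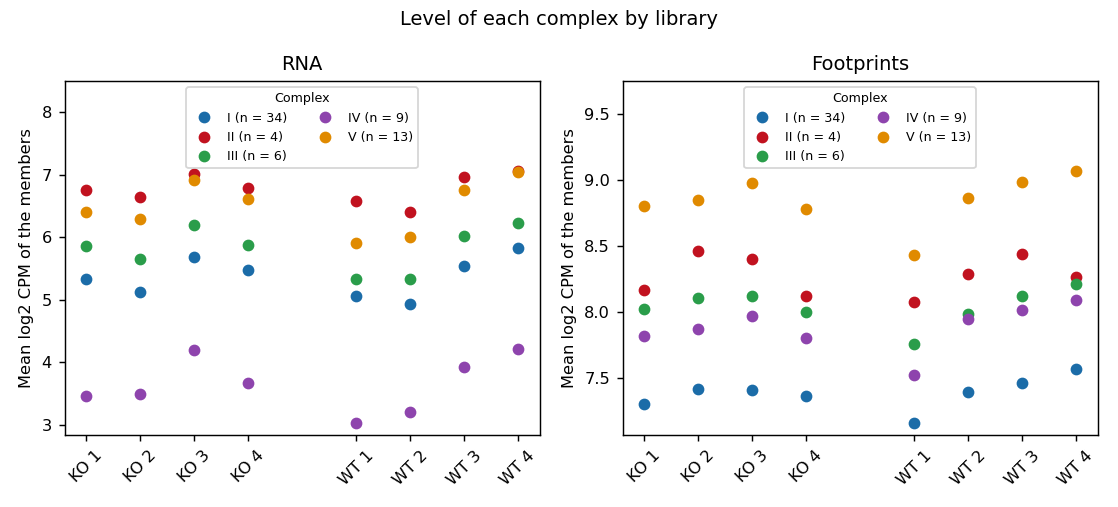
Mean log2 CPM of the genes of each complex in each library, KO cultures left of WT cultures, for RNA (left) and footprints (right); n is the number of genes tested in both assays. WT 1 is the lowest WT library in footprints and WT 1 and 2 are the low ones in RNA, and KO spans 5.27 to 5.85 log2 CPM in RNA over all 66 genes against 5.03 to 5.96 in WT.

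The levels of TE differed between genes far more than between genotypes. The level is the log2 ratio of footprint TPM to RNA TPM, for genes of at least 5 TPM in both assays of every culture. Its median over 66 such genes was 0.93 in KO and 0.92 in WT, against -0.31 and -0.34 over 7532 genes. These are not the same 66 as the genes tested in both assays: Ndufa1 is among them and Atp5k is not. As a ratio of CPM, which does not correct for length, the median was 2.01 in KO and 2.17 in WT over 65 genes, against -0.152 and -0.153 over 10682 genes. For genes whose implied length is under 0.25 of that of Atp5b the TPM ratio is uncertain, because for a number of them counts and TPM imply a much shorter length in RNA than in footprints or none: Atp5e and Uqcr11 had 63.1 to 102 CPM and 76.1 to 106 CPM in footprints and are listed at 0 TPM in RNA, and Cox7c is listed at 5182 TPM in KO RNA and 5524 TPM in WT RNA on 7.65 to 19.1 CPM, an implied RNA length of 0.0248 of its footprint length relative to Atp5b. Over the 28 longer genes the median was 0.41 in KO and 0.41 in WT, against -0.37 and -0.40 over 6920 genes of at least that length. Sdhc was highest at 1.59 ± 0.26 in KO and 1.55 ± 0.17 in WT, and Sdhd, the other anchor, had 1.40 ± 0.17 and 1.43 ± 0.38. Atp5b had -0.23 ± 0.26 in KO and -0.23 ± 0.29 in WT (SD, n = 4 each). The neighbours Sdhc and Sdhd at the top differed by less than the larger of their SDs in either genotype. Their implied RNA lengths were 0.641 and 0.614 of their footprint lengths, relative to Atp5b, so the ratios of these longer genes are uncertain too.

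The TE interaction test, KO over WT, gave values from -0.58 for Atp5k (SE 0.82) to 0.36 for Ndufa2 (SE 0.44), with 28 of 66 genes positive against 53.5% of all tested genes. Both extremes are genes with few RNA counts. By complex the median was -0.04 in complex I, -0.004 in complex II, -0.05 in complex III, -0.02 in complex IV and 0.01 in complex V.

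The largest movement of these genes was between replicate sets and not between genotypes. Replicates 3 and 4 had more RNA of 65 of 66 genes than replicates 1 and 2, and Ndufs1 was the exception. The median log2 fold change was 0.59, against -0.03 over all genes, and edgeR called 23 of 66 genes higher and 0 lower at an adjusted p under 0.05. Over all genes 12.1% were called higher and 13.1% lower. Tests between the sets, in RNA and in footprints, took all cultures as independent. The replicate numbers were taken to pair KO with WT cultures, so these p-values can be too small. The main tests of KO against WT did not use that pairing either, and a replicate block was run as an alternative. Of the 66, 28 did not overlap between the sets with replicates 3 and 4 higher, against 16.6% of all genes. For footprints the labels give the longer UMI as the difference between the sets, and for RNA they name none, so that UMI length, isolation and other differences between the sets cannot be told apart.

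Complex V had 7 of 13 genes called, complex I 12 of 34, complex IV 2 of 9, complex III 1 of 6 and complex II 1 of 4, with medians of 0.66, 0.50, 0.75, 0.51 and 0.40. Uqcrc1 (RefSeq GRCm38.p6, chr9:108936648-108949641) had the smallest p-value. It had 449 and 478 CPM in RNA of KO 3 and 4 and 438 and 543 CPM in WT 3 and 4, against 308 and 274 CPM in KO 1 and 2 and 241 and 227 CPM in WT 1 and 2. The sets did not overlap in either genotype, and the log2 fold change was 0.87 (SE 0.15, adjusted p = 0.00971, edgeR). The 3 c-subunit genes were called together, Atp5g1 at 1.16 (SE 0.25), Atp5g2 at 0.81 (SE 0.18) and Atp5g3 at 0.68 (SE 0.19). Atp5g1 (chr11:96072793-96075694) had 65.7 and 54.6 CPM in KO 3 and 4 and 64.2 and 83.6 CPM in WT 3 and 4, against 41.4 and 37.3 CPM in KO 1 and 2 and 20.8 and 23.8 CPM in WT 1 and 2. Of the F1 sector, Atp5a1, Atp5b and Atp5d were called and Atp5c1 was not, at 0.20 (SE 0.14). Of the peripheral stalk, Atp5h was called at 0.60 (SE 0.17), and Atp5f1 had the lowest value of the complex, 0.08 (SE 0.15).

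In complex I the called genes were the core subunits Ndufs3, Ndufs8 and Ndufv2 and the accessory subunits Ndufa5, Ndufa8, Ndufa12, Ndufb4, Ndufb7, Ndufb8, Ndufb9, Ndufb10 and Ndufc2. Ndufa12 had the largest value, 1.07 (SE 0.25), with 122 and 74.1 CPM in KO 3 and 4 and 95.2 and 132 CPM in WT 3 and 4, against 69.0 and 53.7 CPM in KO 1 and 2 and 39.8 and 41.4 CPM in WT 1 and 2. Ndufs1, the largest iron-sulphur subunit, had 152 and 156 CPM in KO 3 and 4 and 180 and 174 CPM in WT 3 and 4, against 140 and 230 CPM in KO 1 and 2 and 216 and 187 CPM in WT 1 and 2, a value of -0.22 (SE 0.18) that did not pass. In complex II the anchor Sdhd was called at 0.62 (SE 0.20) and the anchor Sdhc was at 0.06 (SE 0.19). In complex IV Cox5b was called at 0.75 (SE 0.21) and Cox7a2 at 1.17 (SE 0.35), the second on 1.57 to 7.47 CPM.

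The number of calls rested on the whole set of cultures. Of the 23 called genes, 2 were still called without WT 4, 3 without KO 2, 5 without WT 2 and 7 without WT 3. Without KO 3 or WT 1 it was 10, without KO 4 it was 12 (of 13 then called) and without KO 1 it was 18 (of 23 then called). Over all tested genes, 484 of 11272 were called higher without WT 4, 558 of 11224 without KO 2 and 849 of 11221 without WT 2. The numbers were 607 of 11252 without WT 3 and 1311 of 11243 without KO 1. Without WT 4, KO 2 or WT 2, the share called among the 66 was near or below that of all genes. The median of the 66 genes stayed between 0.45 and 0.68 in these 8 runs. Within a genotype no gene was called, with a median of 0.38 in KO cultures (62 of 66 positive) and 0.82 in WT cultures (65 of 66 positive). Markers of other cells moved with the sets in both directions, and their part in the result was not tested. In RNA of replicates 3 and 4, 4 of 5 tested astrocyte markers were called lower, with a median of -3.06, as were 3 of 10 neural stem and progenitor, 2 of 4 oligodendrocyte-lineage and 1 of 4 neuroblast and neuron markers. The 1 tested ependymal marker was called higher, at 1.18, and the ependymal sum was 36.9 and 77.3 CPM in KO 3 and 4 and 63.4 and 66 CPM in WT 3 and 4, against 22.8 and 34.6 CPM in KO 1 and 2 and 28.2 and 21.3 CPM in WT 1 and 2. The neuroblast and neuron sum was 318 and 338 CPM in KO 3 and 4 and 657 and 285 CPM in WT 3 and 4, against 406 and 715 CPM in KO 1 and 2 and 936 and 720 CPM in WT 1 and 2. The summed astrocyte level was 805 and 620 CPM in RNA of KO 3 and 4 and 73.1 and 127 CPM in WT 3 and 4, against 1400 and 1410 CPM in KO 1 and 2 and 710 and 470 CPM in WT 1 and 2.

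Footprints followed only in part. Of 73 genes 55 had a positive value with a median of 0.15, against 0.001 over all genes, and 3 were called higher and 1 lower, where 7.56% of all genes were called higher and 11.5% lower. In the shortest quartile by the length described below, the median was 0.136 over 60 of these genes and 0.127 over all genes. There 42 of the 60 were positive, against 61% of all genes. The called genes were Ndufa8, an accessory subunit of complex I (0.45, SE 0.12), Cox8a (0.60, SE 0.16), Atp5a1 (0.46, SE 0.14) and, lower, Cox8b (-3.17, SE 0.71). Atp5a1 had 2385 and 2066 CPM in KO 3 and 4 and 2257 and 2605 CPM in WT 3 and 4, against 1699 and 1923 CPM in KO 1 and 2 and 1483 and 1661 CPM in WT 1 and 2. With any single library left out, 0 to 2 genes were called higher and 0 to 2 lower, and leaving out any library but WT 2 moved at least one of these counts by over 1.5 times. Over all genes 86 to 864 were called higher and 233 to 1358 lower in the same runs. The accessory complex IV subunit Cox6a1 had -0.41 (SE 0.13), which edgeR did not call and DESeq2 did, at -0.40 (adjusted p = 0.0252).

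An interaction of assay and replicate set, added after the data were seen, set footprints against RNA in one model. Its median was -0.39 over the 66 genes and 4 were positive, against a median of -0.004 over all genes. In the shortest quartile by the length described below, the median over all genes was -0.178, with 33.9% positive. There 54 of the 66 genes had a median of -0.428, with 2 positive. The test called 0 of the 66 in edgeR, where 0% of all genes were called, and DESeq2 called 1, Cox6b1 at -1.12 (adjusted p = 0.033). At an unadjusted p under 0.05 there were 16 of the 66, all negative, against 13% of all genes in either direction. With a term for each culture, also added after the data were seen, edgeR again called 0 of the 66 and 0% of all genes, 31 negative and 1 positive gene had an unadjusted p under 0.05 against 30.1% of all genes, and the median was -0.387. The lowest value was that of Atp5k, a small membrane subunit of complex V, at -1.71 (SE 0.66) on 0 to 5.20 CPM in RNA, and the highest that of Ndufs1, at 0.32 (SE 0.26).

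**Figure D4:**
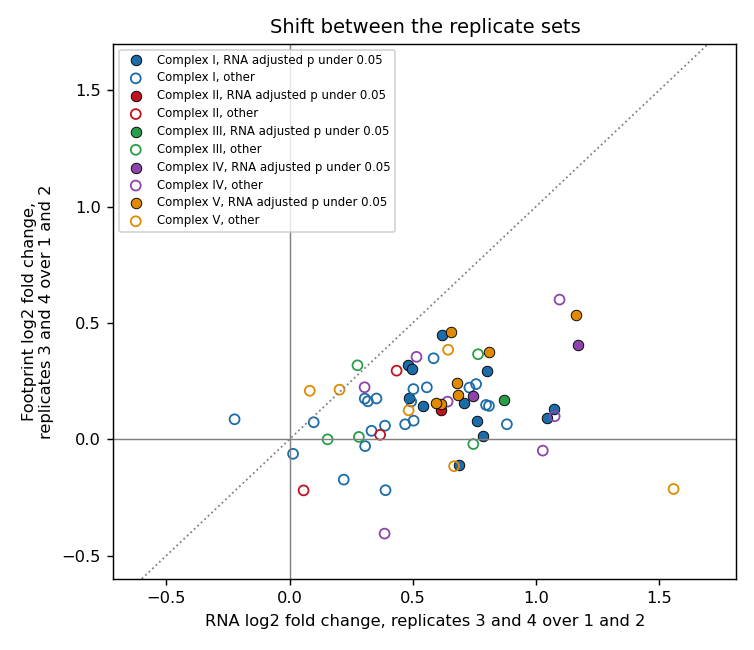
Log2 fold change of replicates 3 and 4 over 1 and 2 in RNA (x) and footprints (y) for the 66 genes tested in both; filled points passed an adjusted p of 0.05 in RNA and the dotted line marks equal change. Nearly all points lie right of 0, with Ndufs1 alone to its left at -0.22, and below the dotted line.

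Most of these genes are short, and short genes as a class had higher RNA values in replicates 3 and 4. Length here is the ratio of footprint counts to TPM relative to Atp5b, since no table of coding lengths was used. Genes with a footprint TPM summing to under 40 over the footprint libraries were given no length. They were left out of the quartiles, which held 2246 genes each in RNA and TE and 2297 in footprints. The values that follow are for RNA. In the shortest quartile of all genes with a length the median was 0.34 with 20.3% called higher, and the 54 genes of the 5 complexes in it had a median of 0.63, with 20 called. In the next quartile it was 0.10 with 16.6% called, and the 4 members had 0.32 and 0 called. In the third quartile it was -0.06 with 12.5% called, and the 7 members (among them Atp5a1, Atp5b and Uqcrc1) had 0.50, with 3 called. In the longest quartile it was -0.37 with 6.5% called, and Ndufs1, the 1 member, had -0.22. In each quartile the median of the members, or the value of the 1 member, was above that of all genes, while single members such as Ndufa6, Sdhc, Uqcrh and Ndufa7 lay below it in the shortest. The part of length in the difference was not tested.

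**Figure D5:**
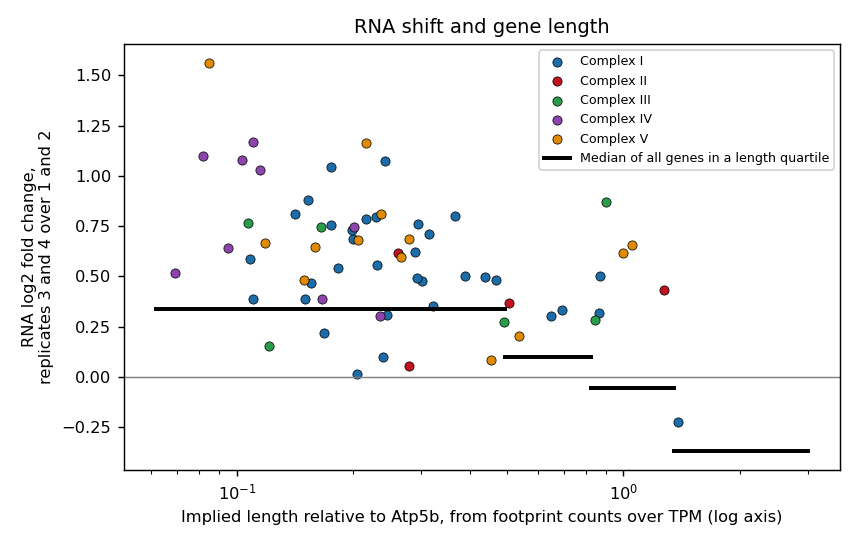
RNA log2 fold change of replicates 3 and 4 over 1 and 2 against implied length relative to Atp5b (log axis) for each gene, by complex; black lines are medians of all genes given a length in each length quartile, the last cut short at the right. Points lie mostly above the lines, whose values fall to -0.37 in the longest quartile, against 0.34 in the shortest.

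Other lists of the pathway differed among themselves in RNA between replicate sets, where 12.1% of all tested genes were called higher and 13.1% lower. Of 8 tested subunits outside the naming rule, 7 were positive and 3 were called higher: Ndufab1, the acyl carrier protein of complex I, at 0.96 (SE 0.20), Cyc1, cytochrome c1 of complex III, at 0.86 (SE 0.18), and Cox7a2l, a supercomplex factor, at 0.68 (SE 0.18). Of 36 assembly factors 33 were positive and 7 called higher, among them Foxred1 and Ndufaf6 of complex I and Cox10, which makes haem for complex IV. Of 16 carriers, pores and import proteins 16 were positive and 6 called higher, with Timm23 of the inner-membrane translocase at 0.93 (SE 0.15). Of 14 regulators 3 were called higher and 2 lower: Polrmt, the mitochondrial RNA polymerase, had 1.57 (SE 0.20), and Pprc1, a coactivator, 0.98 (SE 0.14), while the coactivator Ppargc1a had -0.98 (SE 0.31) and Gabpa, an ETS factor, -0.84 (SE 0.25). Of 16 tricarboxylic acid cycle and pyruvate dehydrogenase genes 13 were positive, with 2 called higher (Fh1 and Mdh2) and 1 lower (Pdha1). Of 16 glycolytic enzymes 6 were positive and 1 was called, lower, Aldoc at -1.27 (SE 0.36). Aldoc is also known as an astrocyte-enriched gene.

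Promoters were examined for 5 short motifs that are known from genes of this group, because the genes moved together between replicate sets. The table of RefSeq promoters (GRCm38.p6) held 65 of the 78 genes, as windows of 250 bases before and 50 after the gene start, read on both strands. NRF1 sites (GCGCANGCG) stood in 27.7% of the 65 promoters against 6.5% of 27025 promoters in the table. ETS motifs (CCGGAAG) stood in 23.1% against 9.1%, YY1 motifs (AANATGGCG) in 12.3% against 2.5%, ERR half-sites (AAGGTCA) in 12.3% against 4.7%, and CCAAT boxes (CCAAT) in 44.6% against 37.9%. The 27025 promoters include genes not expressed here. Shares over expressed genes alone were not counted, so an excess particular to this group cannot be read from these values. By complex, the NRF1 motif stood in 8 of 32 promoters of complex I, 2 of 3 of complex II, 2 of 5 of complex III, 1 of 12 of complex IV and 5 of 13 of complex V. Of 21 promoters of the genes called higher in RNA of replicates 3 and 4, 9 held it (42.9%). Of the same 21, ETS motifs stood in 23.8%, ERR half-sites in 14.3%, YY1 motifs in 4.8% and CCAAT boxes in 33.3%. The last 2 shares are below those of the 65 promoters. Called and other genes were not compared by a test, and the part of any motif in the shift was not tested. A match is a description of letters in the window and says nothing of binding.

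The 100 bases before the gene start are shown for Ndufb4 and Sdha, which have several NRF1 matches, for Sdhd and Atp5g2, which were called in RNA between replicate sets, and for Ndufa8, which was called there in both assays. All lie on the minus strand and are written 5′ to 3′ on it, with matches to any of the motifs in capitals: Ndufb4 (chr16:37654369-37654468) shows 2 of its 3 NRF1 matches and an ERR half-site, Ndufa8 (chr2:36049339-36049438) 2 NRF1 matches on the opposite strand, Sdha (chr13:74350241-74350340) 3 NRF1 matches, Sdhd (chr9:50603850-50603949) an NRF1 and an ETS match, and Atp5g2 (chr15:102671048-102671147) a palindromic NRF1 match, which counts on both strands.
Ndufb4: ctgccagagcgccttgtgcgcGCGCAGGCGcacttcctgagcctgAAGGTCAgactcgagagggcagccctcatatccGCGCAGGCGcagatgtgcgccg
Ndufa8: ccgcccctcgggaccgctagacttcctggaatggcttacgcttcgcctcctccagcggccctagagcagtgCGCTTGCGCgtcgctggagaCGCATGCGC
Sdha: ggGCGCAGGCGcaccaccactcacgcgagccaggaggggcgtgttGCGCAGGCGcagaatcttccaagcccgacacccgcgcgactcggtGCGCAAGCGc
Sdhd: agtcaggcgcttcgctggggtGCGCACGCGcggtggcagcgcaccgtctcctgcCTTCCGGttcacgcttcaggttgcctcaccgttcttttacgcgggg
Atp5g2: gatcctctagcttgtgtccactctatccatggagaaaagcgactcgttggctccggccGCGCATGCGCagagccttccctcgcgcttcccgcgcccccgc
Between genotypes none of the printed genes was called. Their footprint log2 fold changes, KO over WT, were 0.10 for Ndufb4, 0.04 for Ndufa8, 0.20 for Sdha, 0.16 for Sdhd and -0.02 for Atp5g2. Their RNA values, all positive, were 0.24 for Ndufb4, 0.04 for Ndufa8, 0.14 for Sdha, 0.23 for Sdhd and 0.17 for Atp5g2.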

How the data were processed

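Ribosome footprints and cytoplasmic RNA were measured in 16 libraries, 4 per genotype and assay. The deposited estimated counts per gene are whole numbers made by the authors with RSEM 1.2.11 on mm10, per the submitters' processing notes, which also name TopHat2 2.0.9, Bowtie2 2.1.0, bedtools 2.22.0, SAMtools 0.0.19 and cutadapt 1.7.1. A second table deposited by the authors holds TPM rounded to whole numbers, treated as a score. How UMIs were collapsed and whether strand was used is not stated there. Of 20436 lines of counts, 27 named no gene (0.244% to 0.422% of counts) and were left out.

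The tests used edgeR 4.0.16 under R 4.3.3 (filterByExpr, TMM, quasi-likelihood F test, Benjamini-Hochberg over all genes tested). RNA was fitted on genotype, footprints on genotype and UMI length, and TE as the interaction of assay and genotype. Replicate sets were compared with a genotype term. SEs were derived from the F statistic, and CPM is TMM-scaled within an assay. Scripts were tested on simulated data. P-values measure the spread between independently isolated cultures, each taken as independent. Tests between replicate sets did not use the pairing of same-numbered cultures given below, so their p-values can be too small. The main tests of KO against WT did not use it either. The main TE models did not use that each culture gave both libraries. Alternatives were DESeq2 1.42.0, limma-voom and limma-trend (limma 3.58.1), other size factors, no filter, no UMI term, replicate sets alone, a replicate block, a term for each culture in TE and leaving out each culture. The replicate numbers in the titles were checked for pairing: deviations from group means correlated at 0.481 to 0.613 in RNA and 0.379 to 0.54 in footprints between same-numbered cultures, against -0.542 to 0.368 and -0.456 to 0.453 between others, so by the rule of over 0.1 in every pair the numbers were taken to pair them. The shift between replicate sets was left in these deviations, and same-numbered cultures share a set, so the rule can be met without pairing. The ranges of same-numbered and other cultures overlap in footprints and not in RNA.

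The members and lists were chosen with earlier results of these data known. Genes named were those past an adjusted p of 0.05 (up to 6 a direction), the highest and lowest of each complex at a mean of at least 5 CPM, the 2 with most footprints per complex, isoform pairs and genes under the filter; others were chosen after their values were seen. Genes under the RNA filter were Ndufc1, Ndufa1, Ndufa4l2, Uqcr10, Uqcr11, Cox6a2, Cox8b, Cox6b2, Cox7a1, Cox7b2, Cox8c and Atp5e, and under the footprint filter Ndufa4l2, Cox6a2, Cox7a1, Cox7b2 and Cox8c. Footprints per kb of coding sequence were planned, but no coding lengths were used, and the deposited TPM stands in their place. Promoters came from RefSeq (GRCm38.p6); all 78 symbols matched, 1 by synonym. Not every gene that this rule names is reported here.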

Additional observations from a re-analysis of the deposited data

Results flagged for a closer look

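Of 173 groups of 4 libraries tested for the named genes, 16 held a library far from the other 3 by Dixon's gap ratio, where chance gives about 1 in 20, and of 40 groups of complex levels and synthase ratios 0 did. In footprints, Ndufa5 was low in KO 4 (129.9 CPM), Atp5b was low in WT 1 (1858 CPM), and Cox6a2 and Ndufa3 were high in WT 2 (8.734 and 122.4 CPM). In KO RNA, replicate 3 was high for Ndufa2 (8.125 CPM), Uqcr11 (2.112 CPM) and Uqcrb (12.35 CPM), and replicate 4 was low for Ndufa3 (2.282 CPM). In WT RNA, replicate 4 was high for Ndufa2 (12.19 CPM), Cox8a (7.034 CPM), Uqcr10 (2.501 CPM) and Ndufa4l2 (0.4689 CPM), replicate 3 for Atp5e (0.3293 CPM) and Cox8b (0.1646 CPM), replicate 2 for Cox6a2 (2.455 CPM), and replicate 1 was low for Atp5f1 (205.9 CPM). Most of the RNA cases are genes of few counts.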

How the results depend on the processing

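Between KO and WT no gene of the 5 complexes was called in RNA, footprints or TE under any alternative run, the replicate block included, whose counts were 0 in each; the block changed no call. Leaving out 1 culture at a time, the median log2 fold change ran from -0.0585 to 0.258 in RNA, from -0.0846 to 0.0521 in footprints and from -0.173 to 0.112 in TE, with 0 called throughout. Within replicates 3 and 4 alone the footprint median was -0.147. Between replicate sets in RNA, calls higher ran from 2 to 23 with 1 culture left out and calls lower stayed at 0, with medians of 0.451 to 0.681. Over all genes 484 to 1311 were called higher in these runs. DESeq2 called 31 genes, including all 23. KO cultures alone and WT cultures alone, added after seeing the data, gave 0 and 0 calls, with medians of 0.378 and 0.822. In footprints the counts higher were 1 without a filter, 6 by DESeq2 and 0 in KO or WT cultures alone, and lower 2 by DESeq2 and 0 in either genotype alone; with 1 culture left out they ran from 0 to 2 higher and 0 to 2 lower, with medians of 0.0604 to 0.184. For TE between sets, DESeq2 called 1 lower, and with 1 culture left out 0 were called, with medians of -0.492 to -0.285. With a term for each culture, TE medians were -0.055 between genotypes and -0.387 between sets, with 0 calls. The median TE level in WT was 2.17 as a ratio of CPM and 0.411 over longer genes. A replicate block cannot be fitted to replicate sets. The cause of these movements was not tested. Of 12 genes under the RNA filter 5 were also under the footprint filter; the other 7 had enough footprints but too few RNA counts, so that RNA depth limits what can be said of them.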
